A study of Mus musculus with 25 samples.

Results

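The mouse genes that copy the genome, divide the cell and gate entry into the cycle were read in embryonic mesenchyme. The set holds 42 genes, chosen by name from a table of 35880 genes, and each name matched exactly 1 row. It holds 13 S phase genes, 3 G1/S regulators, 21 mitosis genes, 3 D cyclins and 2 inhibitors of cyclin-dependent kinases (CDKs). All 42 passed the filter on low counts and were among the 17657 genes tested. RNA-seq was done on 5 mesenchymal tissues of C57Bl/6JOlaHsd mouse embryos, with 5 libraries each: E16.5 fat pad precursor (E16.5 FP), E16.5 mammary mesenchyme (E16.5 MM), E13.5 mammary mesenchyme (E13.5 MM), E13.5 ventral skin mesenchyme (E13.5 VM) and E13.5 mesenchyme of the submandibular salivary gland (E13.5 SM), where E13.5 and E16.5 are embryonic days. The embryos carried no transgene or treatment that the labels name. The E16.5 embryos were labelled female and the E13.5 embryos had no sex given, so that stage and sex of the E16.5 tissues cannot be told apart. A library was a pool of mesenchyme from 2 to 3 embryos of 1 litter, freed of epithelium with enzymes and needles, and the 5 libraries of a tissue came from 3 litters. Which libraries share a litter is not given, so that the p-values measure the spread between pools and not only between litters.

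A cell copies its DNA once per cycle in S phase and parts the copies in mitosis. E2F transcription factors switch on the S phase genes once cyclin D and cyclin E kinases have inactivated the Rb proteins, and the mitosis genes follow later through the DREAM and B-Myb complexes and FoxM1. The mRNAs of both groups are low in cells that have left the cycle. In a bulk library, fewer cycling cells and less of these RNAs per cell cannot be told apart.

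Total counts per library ran from 20678150 to 34448304, with a median of 26370369, and the lowest count of any member in any library was 21, for Cdkn1a. The summed level of 5 salivary mesenchyme markers was 630 to 744 CPM (counts scaled to library size) in E13.5 SM and at most 64.3 CPM elsewhere, and 7 fat pad markers summed to 1123 to 1916 CPM for E16.5 FP and at most 426 CPM elsewhere. The 6 mammary mesenchyme markers separated E16.5 MM (804 to 1583 CPM) but not E13.5 MM (461 to 586 CPM) from E13.5 VM (412 to 523 CPM), and the salivary mesenchyme (312 to 534 CPM) overlapped both E13.5 MM and E13.5 VM. The 4 ventral skin mesenchyme markers did separate E13.5 VM (420 to 527 CPM) from E13.5 MM (213 to 313 CPM). One library stood apart for the cell cycle genes. E13.5 SM replicate 1 had the highest value of its tissue for 35 of the 37 S phase, G1/S and mitosis members. Its 8 skeletal muscle markers summed to 214 CPM, against 35.2 to 48.2 CPM in the other E13.5 SM libraries, and the part of muscle in its high values was not tested. The counts of all members called higher than in E13.5 SM are therefore also given without this library. Counts for parts of the set, such as the S phase or mitosis genes, and for further gene lists are given only with it.

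Cell cycle RNAs were highest in the E13.5 skin and mammary mesenchymes and lowest in the salivary mesenchyme. Of the 37 S phase, G1/S and mitosis members, 23 had their highest mean level in E13.5 VM, 8 for E13.5 MM, 5 for E16.5 FP (Pcna, Rrm1, Rrm2, Ccne1 and Ccne2) and 1 for E16.5 MM (E2f1). The lowest mean lay in E13.5 SM for 33 of them, all 21 mitosis members included, and in E16.5 MM for Mcm2, Mcm4, Cdt1 and Ccne1. The mean log2 CPM over the 21 mitosis members was 6.98 ± 0.06 for E16.5 FP, 6.72 ± 0.09 for E16.5 MM, 7.24 ± 0.07 for E13.5 MM, 7.30 ± 0.03 for E13.5 VM and 5.91 ± 0.19 for E13.5 SM (SD, n = 5 each). Over the 13 S phase members it was 6.81 ± 0.06 for E16.5 FP, 6.49 ± 0.07 for E16.5 MM, 6.96 ± 0.09 for E13.5 MM, 7.06 ± 0.05 for E13.5 VM and 6.18 ± 0.15 for E13.5 SM. No library of E13.5 SM reached a library of another tissue for the mitosis list, and the libraries of E16.5 MM lay below those of E16.5 FP, which in turn lay below those of both E13.5 MM and E13.5 VM. E13.5 MM and E13.5 VM overlapped. For the S phase list, E13.5 SM replicate 1 (6.45) passed the lowest E16.5 MM library (6.40), and E16.5 FP (6.74 to 6.90) overlapped E13.5 MM (6.82 to 7.05).

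**Figure D1:**
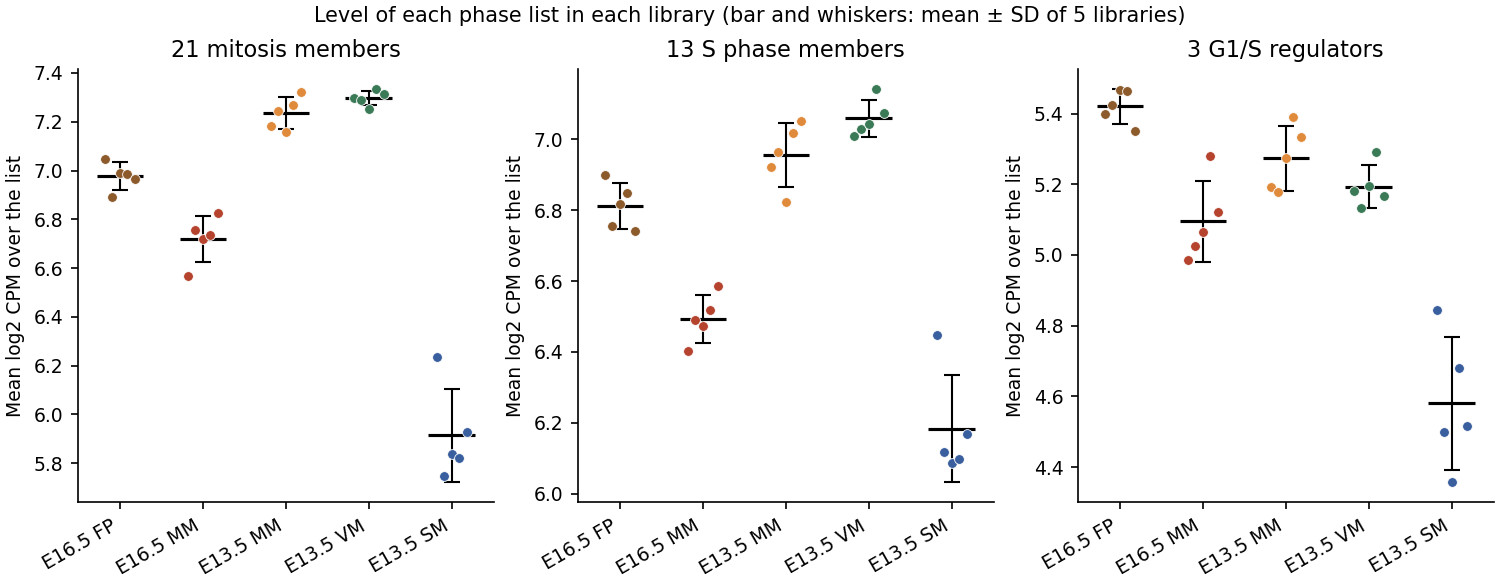
Mean log2 CPM over the mitosis, S phase and G1/S lists (y axis) in each of the 25 libraries, by tissue (x axis); points are libraries in replicate order, and bars with whiskers are the mean ± SD of 5 libraries. The 5 E13.5 SM libraries lie lowest in the mitosis panel, at 5.75 to 6.24, with replicate 1 the highest of them.

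The gap between the 2 phases also varied by tissue. The mitosis mean less the S phase mean was 0.13 to 0.22 for E16.5 FP, 0.17 to 0.27 for E16.5 MM, 0.25 to 0.34 for E13.5 MM and 0.19 to 0.29 for E13.5 VM, against −0.37 to −0.21 for E13.5 SM. The genes differ in length, so that only the change of this difference between tissues is read, and it was not tested. Against E13.5 SM the mitosis list thus stood further up than the S phase list in each of the other 4 tissues.

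Per kb of exon, the most abundant S phase member was Pcna, the sliding clamp of DNA polymerase, with 124 CPM per kb in E16.5 FP and 59.3 for E13.5 SM. Mki67, which codes for the Ki-67 antigen of dividing cells, led the mitosis members in E16.5 FP with 107 CPM per kb and in E13.5 SM with 50.6, and Top2a, the topoisomerase that untangles sister DNA, led in E13.5 MM with 112. The licensing factor Cdt1 was the least abundant S phase member in every tissue except E13.5 SM, where Cdc6 was lower (4.00 CPM per kb). The median coefficient of variation over the mitosis members was 6.07% for E16.5 FP, 8.97% for E16.5 MM, 7.58% for E13.5 MM and 5.95% for E13.5 VM, and 15.7% for E13.5 SM, where replicate 1 lay apart.

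The first 4 comparisons ask how each tissue differed from the salivary mesenchyme, which is the E13.5 SM libraries in every case, so that the 4 share their reference and are given side by side. To be called, a gene needed an adjusted p under 0.05 in edgeR's quasi-likelihood test, a change beyond 0.58 on the log2 scale in either direction, and a mean normalised count above 50 in the tissue where it was higher. E16.5 FP had 32 of the 42 members called higher and 0 lower, where 20.2% of all genes tested were called higher and 19.3% lower. E16.5 MM had 24 higher and 0 lower (all genes 18.5% and 16.6%), E13.5 MM 34 higher and 0 lower (all genes 14.5% and 15.6%), and E13.5 VM 37 higher and 1 lower (all genes 14.7% and 15.6%). Without E13.5 SM replicate 1 the counts called higher were 32, 27, 34 and 37, in the same order of tissues. By adjusted p alone, with no demand on fold or count, Ccnd3 was the 1 member lower in 3 of the tissues, which were E16.5 FP (all genes 36.8% higher and 34.9% lower), E13.5 MM (30.3% and 30.8%) plus E13.5 VM (30.3% and 30.6%), and 0 were lower in E16.5 MM (33.6% and 34.4%). The median log2 fold change of all genes was between −0.01 and 0.04 in these comparisons. Other cells moved with the same contrast. In E13.5 SM, 7 peripheral neuron markers summed to 288 to 359 CPM and 7 leukocyte markers to 39.2 to 52.2 CPM, while elsewhere the neuron markers summed to at most 47.7 CPM and the leukocyte markers to at least 119 CPM. The 8 epithelial markers summed to 18.8 to 26.7 CPM for E13.5 SM and to 2.97 to 99.8 CPM elsewhere. The 6 endothelial markers summed to 375 to 444 CPM for E13.5 SM and to at least 529 CPM elsewhere. The 8 erythroid markers summed to 1011 to 1503 CPM for E13.5 SM and to at least 1904 CPM for E13.5 MM and E13.5 VM. They overlapped E13.5 SM in E16.5 FP (1047 to 2584 CPM) and E16.5 MM (1372 to 1819 CPM). The 8 skeletal muscle markers summed to 35.2 to 214 CPM for E13.5 SM and to at least 264 CPM for both E16.5 tissues. The part of these cells in the cell cycle differences was not tested.

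**Figure D2:**
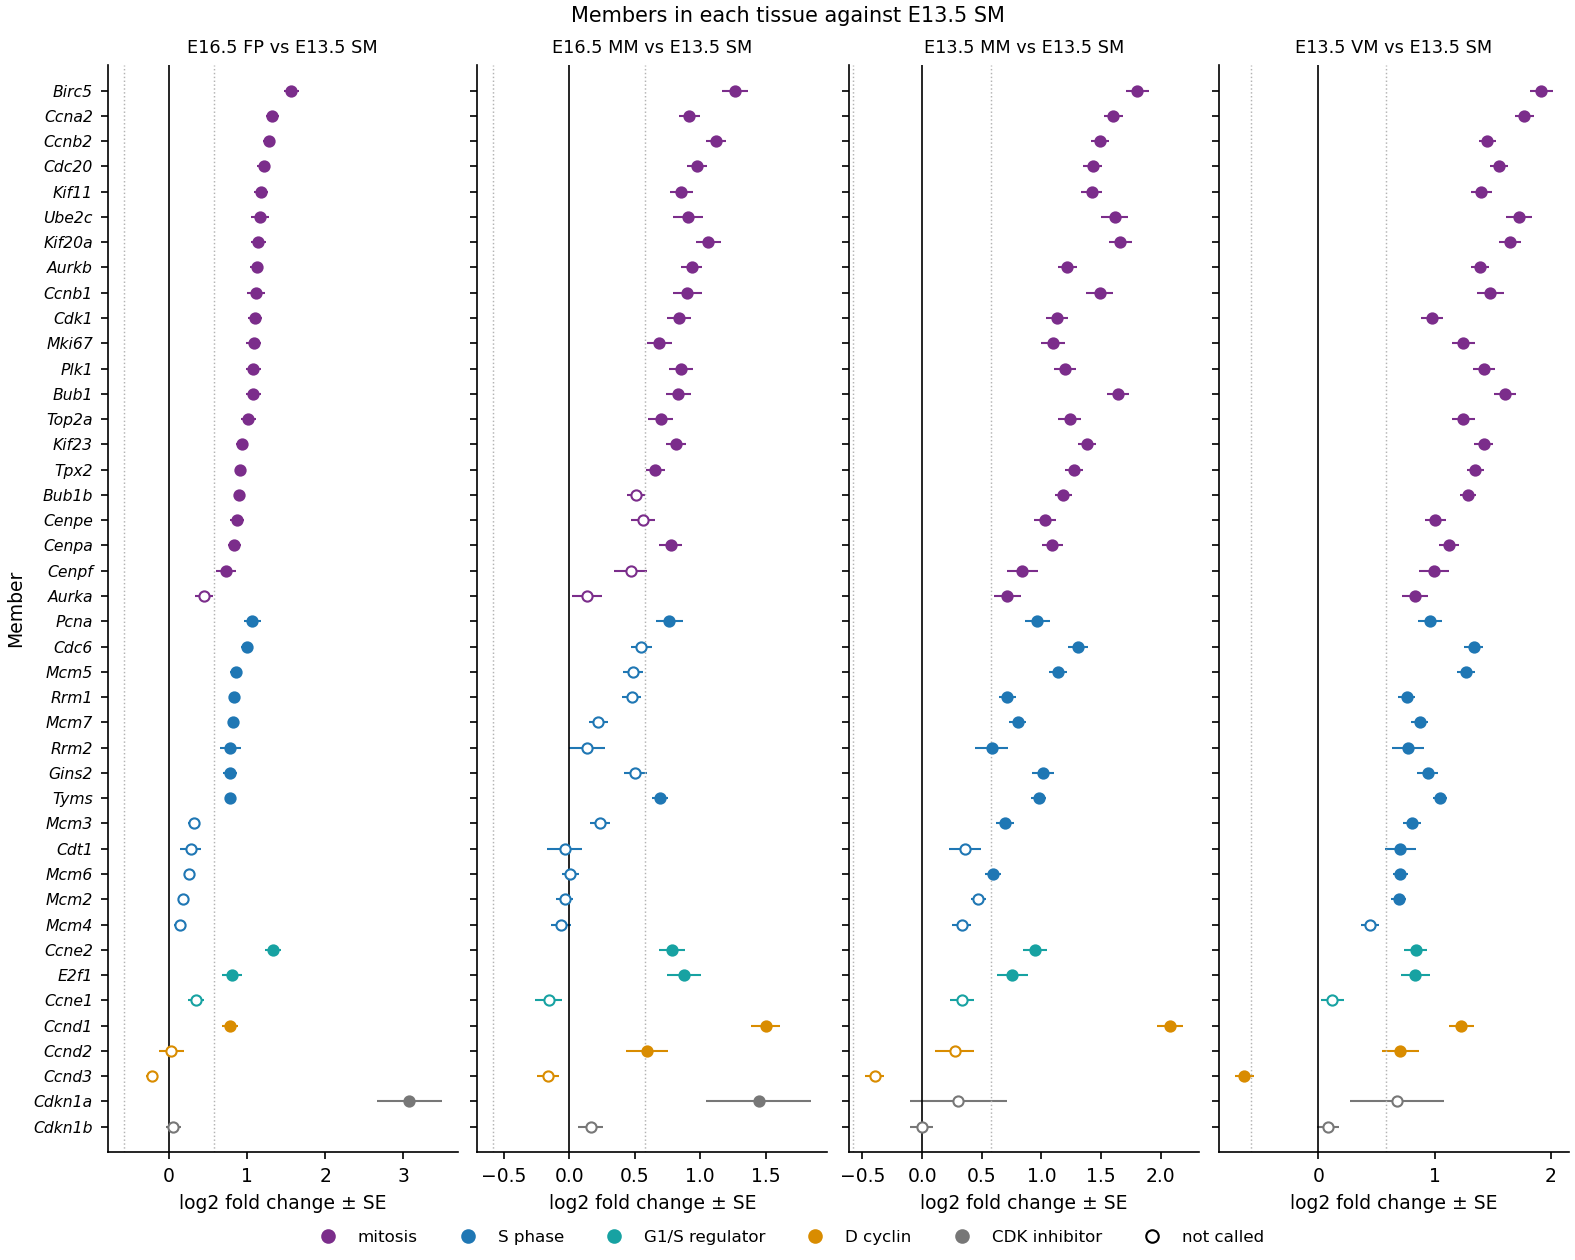
Log2 fold change ± SE (x axis, scaled in each panel) of each of the 42 members (y axis) in E16.5 FP, E16.5 MM, E13.5 MM and E13.5 VM against E13.5 SM, coloured by list; filled points are called and dotted lines mark ±0.58. Called higher are 32, 24, 34 and 37 members, and the median mitosis member lies right of the median S phase member in each panel (1.08 and 0.78, 0.84 and 0.23, 1.27 and 0.72, 1.40 and 0.80).

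Mitosis genes are 21 of the 42 members, and most of them were called higher. Of the 21 mitosis members, 20 were higher in E16.5 FP, 17 for E16.5 MM, 21 for E13.5 MM and 21 for E13.5 VM than in E13.5 SM, with median log2 fold changes of 1.08, 0.84, 1.27 and 1.40. Over all genes, 20.2%, 18.5%, 14.5% and 14.7% were called higher in the same order of tissues. The members not called in E16.5 MM were Bub1b, Aurka, Cenpe and Cenpf, and Aurka was also not called in E16.5 FP. The 4 members with the largest called changes were Birc5, Ccna2, Ube2c and Kif20a.

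Birc5 codes for survivin, a subunit of the chromosomal passenger complex. It had 78.9, 57.2, 69.1, 71.7 and 67.5 CPM for E16.5 FP, 47.2, 57.2, 56.4, 61.2 and 57.4 for E16.5 MM, 73.3, 78.7, 76.9, 87.8 and 89.2 for E13.5 MM and 80.5, 92.0, 86.5, 89.1 and 90.5 for E13.5 VM, against 30.2, 21.3, 22.4, 20.3 and 21.95 for E13.5 SM. Every library of the other tissues lay above the highest E13.5 SM library. Against E13.5 SM, Birc5 had log2 fold changes of 1.57 ± 0.10 (adjusted p = 3.6e-13) for E16.5 FP, 1.27 ± 0.10 (adjusted p = 2.5e-11) for E16.5 MM, 1.81 ± 0.10 (adjusted p = 4.7e-14) for E13.5 MM and 1.92 ± 0.10 (adjusted p = 1.3e-14) for E13.5 VM. Ccna2 codes for cyclin A2, which partners CDK2 in S phase and CDK1 at the entry to mitosis. It had 254, 229, 235, 229.8 and 226 CPM for E16.5 FP, 157, 171, 175, 193 and 189 for E16.5 MM, 264, 270.3, 276, 287 and 327 for E13.5 MM and 330.5, 311, 305, 331 and 323 for E13.5 VM, against 116, 82.4, 87.6, 84.6 and 98.3 for E13.5 SM. The libraries of E13.5 SM again lay apart below all others, and those of E16.5 MM lay below those of E13.5 MM. Against E13.5 SM, Ccna2 had log2 fold changes of 1.32 ± 0.08 (adjusted p = 2.9e-13) for E16.5 FP, 0.92 ± 0.08 (adjusted p = 3.6e-10) for E16.5 MM, 1.60 ± 0.08 (adjusted p = 1.5e-14) for E13.5 MM and 1.77 ± 0.08 (adjusted p = 1.7e-15) for E13.5 VM.

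Ube2c codes for the ubiquitin-conjugating enzyme that works with the anaphase-promoting complex. It had 65.7, 53.8, 75.6, 74.0 and 77.2 CPM for E16.5 FP, 44.2, 58.9, 60.0, 68.6 and 57.9 for E16.5 MM, 93.0, 86.6, 97.1, 94.6 and 102 for E13.5 MM and 127, 93.9, 106, 88.8 and 96.0 for E13.5 VM, against 34.2, 33.2, 29.6, 25.7 and 31.8 for E13.5 SM. The groups other than E13.5 SM did not overlap it. Against E13.5 SM, Ube2c had log2 fold changes of 1.16 ± 0.11 (adjusted p = 1.6e-09) for E16.5 FP, 0.91 ± 0.11 (adjusted p = 1.4e-07) for E16.5 MM, 1.61 ± 0.11 (adjusted p = 6.5e-12) for E13.5 MM and 1.73 ± 0.11 (adjusted p = 1.6e-12) for E13.5 VM. An exon of Ube2c overlaps Tnnc2, a fast muscle troponin gene on the other strand, and whether the counting used strand is not stated. Tnnc2 had 291, 373, 245, 256 and 40.8 CPM for E16.5 FP, and averaged 1.61 ± 2.21 CPM for E13.5 SM (SD, n = 5). Ube2c was highest in E16.5 FP replicate 5, the library of that tissue with the least Tnnc2, and lowest in replicate 2, which had the most. The part of Tnnc2 reads in the Ube2c values was not tested. Kif20a codes for a kinesin of the central spindle, needed for cytokinesis. It had 125, 115, 130.2, 129 and 127 CPM for E16.5 FP, 102, 115, 119, 118 and 138 for E16.5 MM, 181, 175, 179.7, 176 and 185 for E13.5 MM and 192, 172, 174, 183 and 165 for E13.5 VM, against 76.98, 51.2, 52.0, 51.0 and 52.1 for E13.5 SM. E13.5 SM replicate 1 stood at 76.98 CPM against at most 52.1 CPM in the other 4 salivary libraries, and still lay below every library of the other tissues. Against E13.5 SM, Kif20a had log2 fold changes of 1.15 ± 0.09 (adjusted p = 4.9e-11) for E16.5 FP, 1.06 ± 0.09 (adjusted p = 2.4e-10) for E16.5 MM, 1.66 ± 0.09 (adjusted p = 8.2e-14) for E13.5 MM and 1.65 ± 0.09 (adjusted p = 7.7e-14) for E13.5 VM.

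The other 17 mitosis members covered each step of division. They include the mitotic cyclins and their kinase (Ccnb1, Ccnb2, Cdk1), the spindle checkpoint (Bub1, Bub1b), the Aurora and Polo kinases (Aurka, Aurkb, Plk1), the anaphase-promoting complex activator Cdc20, centromere proteins (Cenpa, Cenpe, Cenpf), spindle motors and assembly factors (Kif11, Kif23, Tpx2), and Mki67 and Top2a. Over all 21 members, the log2 fold changes against E13.5 SM ran from 0.45 to 1.57 for E16.5 FP, from 0.14 to 1.27 for E16.5 MM, from 0.72 to 1.81 for E13.5 MM and from 0.83 to 1.92 for E13.5 VM. The lowest in each case was Aurka, with 47.7, 40.9, 40.1, 45.2 and 37.8 CPM for E16.5 FP and 27.5, 37.0, 33.1, 37.6 and 35.2 CPM for E16.5 MM, against 41.7, 26.5, 31.0, 31.1 and 24.5 CPM for E13.5 SM. E16.5 FP overlapped the salivary libraries through E13.5 SM replicate 1, and E16.5 MM overlapped them also without it. Mki67 averaged 1079.9 ± 39.8 CPM for E16.5 FP, 820.4 ± 70.1 for E16.5 MM, 1091 ± 56.5 for E13.5 MM, 1209 ± 126 for E13.5 VM and 509 ± 95.4 for E13.5 SM (SD, n = 5 each). Both were named after their values were seen.

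Fewer of the S phase members were called, and the difference between the S phase and mitosis lists was not tested. Of the 13 S phase members, 8 were higher in E16.5 FP, 2 for E16.5 MM (Pcna and Tyms), 10 for E13.5 MM and 12 for E13.5 VM than in E13.5 SM, with median log2 fold changes of 0.78, 0.23, 0.72 and 0.80. Over all genes, 20.2%, 18.5%, 14.5% and 14.7% were called higher in the same order of tissues. The S phase members of E16.5 MM did not exceed that share. At an adjusted p alone, 8 of the 13 were higher in E16.5 MM (all genes 33.6%). Mcm4, a subunit of the MCM2-7 replicative helicase, was called in none of the 4. Mcm2 and Cdt1 were called in E13.5 VM and not in the other 3 tissues, and neither was called between E13.5 MM and E13.5 VM. In E13.5 MM, Rrm2 and Mcm6 lay near the fold threshold. With 1 library left out, Rrm2 ran from 0.49 to 0.73 and lost its call in 6 of 10 fits. Mcm6 ran from 0.55 to 0.65 and lost its call in 2 of 10. The 4 members with the largest called changes were Cdc6, Mcm5, Pcna and Tyms.

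Cdc6 loads the helicase onto origins together with Cdt1. It had 43.5, 36.7, 42.7, 45.0 and 40.9 CPM for E16.5 FP, 31.1, 29.4, 31.4, 30.6 and 30.8 for E16.5 MM, 51.3, 52.3, 47.7, 51.8 and 55.7 for E13.5 MM and 52.9, 49.7, 51.4, 52.7 and 57.4 for E13.5 VM, against 26.4, 19.6, 18.1, 18.7 and 21.8 for E13.5 SM. All libraries of the other tissues lay above E13.5 SM, and E16.5 MM lay below the other 3 tissues. Against E13.5 SM, Cdc6 had log2 fold changes of 0.997 ± 0.08 (adjusted p = 5.4e-11) for E16.5 FP, 0.55 ± 0.08 (adjusted p = 1.8e-06) for E16.5 MM, 1.31 ± 0.08 (adjusted p = 5.5e-13) for E13.5 MM and 1.34 ± 0.08 (adjusted p = 3.1e-13) for E13.5 VM. In E16.5 MM it fell short of the fold threshold, which it passed with DESeq2 size factors (0.59), with DESeq2 (0.59), with only the 2 tissues fitted (0.63) and without E13.5 SM replicate 1 (0.64). Mcm5 is a subunit of the MCM2-7 helicase. It had 161, 125, 153, 161 and 157 CPM for E16.5 FP, 109.9, 116, 108, 115 and 133 for E16.5 MM, 184, 181, 176, 189 and 185 for E13.5 MM and 202, 189.8, 206, 209 and 193 for E13.5 VM, against 100.04, 81.9, 80.3, 74.7 and 78.9 for E13.5 SM. No library overlapped E13.5 SM, and E16.5 FP overlapped E16.5 MM through E16.5 FP replicate 2, its lowest library. Against E13.5 SM, Mcm5 had log2 fold changes of 0.86 ± 0.08 (adjusted p = 2.5e-10) for E16.5 FP, 0.49 ± 0.08 (adjusted p = 4.3e-06) for E16.5 MM, 1.14 ± 0.08 (adjusted p = 2.5e-12) for E13.5 MM and 1.27 ± 0.08 (adjusted p = 2.8e-13) for E13.5 VM.

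Pcna had 346, 263, 283, 322 and 280.1 CPM for E16.5 FP, 209.9, 234, 251, 262 and 252 for E16.5 MM, 265, 275, 242, 301 and 307 for E13.5 MM and 256, 288, 267, 288 and 289 for E13.5 VM, against 171, 157, 131, 105.5 and 148 for E13.5 SM. E16.5 FP replicate 1 was the highest of all 25 libraries. E13.5 MM and E13.5 VM overlapped each other and both E16.5 tissues, while every E16.5 FP library lay just above every E16.5 MM library. Against E13.5 SM, Pcna had log2 fold changes of 1.07 ± 0.10 (adjusted p = 1.2e-09) for E16.5 FP, 0.77 ± 0.10 (adjusted p = 4.1e-07) for E16.5 MM, 0.97 ± 0.10 (adjusted p = 1.1e-08) for E13.5 MM and 0.96 ± 0.10 (adjusted p = 1.1e-08) for E13.5 VM. Tyms codes for thymidylate synthase, which makes the dTMP used for DNA. It had 121, 102, 126, 125 and 117 CPM for E16.5 FP, 112, 111, 111, 116 and 107 for E16.5 MM, 138, 131, 132, 133 and 145 for E13.5 MM and 144, 134, 141, 145 and 146 for E13.5 VM, against 77.4, 64.9, 71.3, 61.2 and 69.5 for E13.5 SM. The salivary libraries lay below all others. Against E13.5 SM, Tyms had log2 fold changes of 0.78 ± 0.06 (adjusted p = 4.2e-11) for E16.5 FP, 0.69 ± 0.06 (adjusted p = 4.5e-10) for E16.5 MM, 0.98 ± 0.06 (adjusted p = 9.2e-13) for E13.5 MM and 1.05 ± 0.06 (adjusted p = 2.2e-13) for E13.5 VM. Pcna and Tyms have processed copies in the table (Pcna-ps1, Pcna-ps2 and Tyms-ps), between which reads can be split, as do Ccnb1, Ccnb2 and Ccnd3. The remaining S phase members are the other MCM subunits (Mcm2, Mcm3, Mcm4, Mcm6, Mcm7), ribonucleotide reductase (Rrm1, Rrm2), Cdt1 and the helicase subunit Gins2. Over all 13, the log2 fold changes ran from 0.15 to 1.07 for E16.5 FP, from −0.06 to 0.77 for E16.5 MM, from 0.33 to 1.31 for E13.5 MM and from 0.44 to 1.34 for E13.5 VM. The lowest value in each was that of Mcm4, whose groups overlapped except in E13.5 VM.

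The skin and mammary mesenchymes of the same stage were close. In E13.5 MM against E13.5 VM, 1 of the 42 members was called higher (Ccnd1) and 0 lower, where 3.79% of all genes were called higher and 2.66% lower. None of the 37 S phase, G1/S and mitosis members was called, and by adjusted p alone (all genes 7.91% higher and 7.65% lower) 1 of them, Mcm2, was lower, with 133, 130.2, 116, 130.4 and 134 CPM for E13.5 MM against 146, 140.4, 151, 168 and 144 CPM for E13.5 VM (log2 fold change −0.22 ± 0.06, adjusted p = 0.0185, named after its values were seen). The log2 fold changes of these 37 ran from −0.34 to 0.21, with standard errors of 0.06 to 0.14.

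The later mammary mesenchyme showed lower levels of both phases. In E16.5 MM against E13.5 MM, 10 members were called lower and 1 higher, where 7.16% of all genes were called lower and 12.6% higher. The 10 were the S phase members Mcm5, Mcm6 and Cdc6 and the mitosis members Ccna2, Ccnb1, Bub1, Bub1b, Kif20a, Tpx2 and Ube2c, and the 1 was Cdkn1a. The falls were small. All 13 S phase members (median −0.46, from −0.76 to −0.20) and all 21 mitosis members (median −0.54, from −0.81 to −0.28) had negative log2 fold changes, where the median of all genes was 0.01, and at an adjusted p alone 35 members were lower and 2 higher (all genes 25.8% and 23.6%). Many folds lay next to the threshold of 0.58, so that the count of called members moved: leaving out 1 library at a time it ran from 6 (without E13.5 MM replicate 5) to 14. The largest fall was that of Bub1, a kinase of the spindle checkpoint named after its values were seen, with 70.9, 77.7, 83.0, 78.6 and 80.1 CPM for E16.5 MM against 129, 134, 128, 138 and 154 CPM for E13.5 MM. The groups did not overlap, and the log2 fold change was −0.81 ± 0.09 (adjusted p = 1.0e-07). The named members gave −0.76 ± 0.08 (adjusted p = 3.0e-08) for Cdc6, −0.65 ± 0.08 (adjusted p = 1.3e-07) for Mcm5, −0.71 ± 0.11 (adjusted p = 1.1e-05) for Ube2c, −0.69 ± 0.08 (adjusted p = 1.5e-07) for Ccna2, −0.60 ± 0.09 (adjusted p = 6.9e-06) for Kif20a and −0.54 ± 0.10 (adjusted p = 4.8e-05) for Birc5. Kif20a, Mcm6 and Ccnb1 lost their calls with DESeq2, with its size factors and with only the 2 tissues fitted (−0.57 to −0.55 for Mcm6, Ccnb1 and Kif20a under the first 2 settings). Of the S phase and mitosis members, Pcna differed least, at −0.20 ± 0.10 (adjusted p = 0.104). Immediate early and heat shock genes, which respond to tissue handling, moved with the same contrast: 8 of 14 were higher and 0 lower in E16.5 MM. So did markers of other cells, with 7 of 7 leukocyte, 6 of 8 epithelium and 6 of 8 skeletal muscle markers higher, and 1 skeletal muscle, 4 of 7 peripheral neuron and 3 of 5 Schwann cell markers lower. The part of these genes in the result was not tested.

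In the fat pad precursor, S phase and mitosis members differed from E16.5 MM by small folds. In E16.5 FP against E16.5 MM, 3 members were called higher (Mcm7, Rrm2 and Cdkn1a) and 1 lower (Ccnd1), where 6.78% of all genes were called higher and 7.34% lower. All 13 S phase members (median 0.30) and all 21 mitosis members (median 0.26) had positive log2 fold changes, and at an adjusted p alone 25 members were higher and 2 lower (all genes 17.6% and 16.2%). Mcm7, a helicase subunit, had 178, 145, 161, 170.3 and 143 CPM for E16.5 FP against 102, 108, 107, 107 and 102 CPM for E16.5 MM, and its log2 fold change was 0.60 ± 0.07 (adjusted p = 2.4e-07). Rrm2, the regulated subunit of ribonucleotide reductase, had 145, 115, 96.6, 104.8 and 85.0 CPM for E16.5 FP against 60.8, 73.6, 73.4, 68.0 and 72.1 CPM for E16.5 MM, and its log2 fold change was 0.65 ± 0.14 (adjusted p = 0.000598). Neither pair of groups overlapped. Both calls rested on E16.5 FP replicate 1, without which the log2 fold changes were 0.55 for Mcm7 and 0.53 for Rrm2, and that of Mcm7 was 0.57 without replicate 4. In E16.5 FP against E13.5 MM, 1 member was called higher (Cdkn1a) and 1 lower (Ccnd1), where 14.3% of all genes were called higher and 11.2% lower, and at an adjusted p alone 2 members were higher and 23 lower (all genes 25.9% and 27.1%). The median log2 fold change was −0.20 over the S phase members and −0.24 over the mitosis members. Cell type markers and genes that respond to tissue handling moved with both contrasts. For E16.5 FP against E16.5 MM, 8 of 8 skeletal muscle markers were higher, 8 of 9 mesenchyme markers were lower, and of 14 immediate early and heat shock genes 1 was higher and 8 lower. For E16.5 FP against E13.5 MM, 7 of 8 skeletal muscle and 7 of 7 leukocyte markers were higher, and 5 of 7 peripheral neuron markers were lower. There, 5 of 6 endothelium markers were higher, and of 9 mesenchyme markers 2 were higher and 4 lower. Of the 14 immediate early and heat shock genes, 4 were higher and 1 lower (all genes 14.3% and 11.2%). Their part in the results was not tested. Of the S phase members in E16.5 FP against E13.5 MM, 4 lay above 0 (Pcna, Rrm1, Rrm2 and Mcm7, 0.02 to 0.20) and 9 below. All 21 mitosis members were below 0. At an adjusted p alone, 0 S phase members were higher and 8 lower, and 0 mitosis members were higher and 14 lower (all genes 25.9% and 27.1%).

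**Figure D3:**
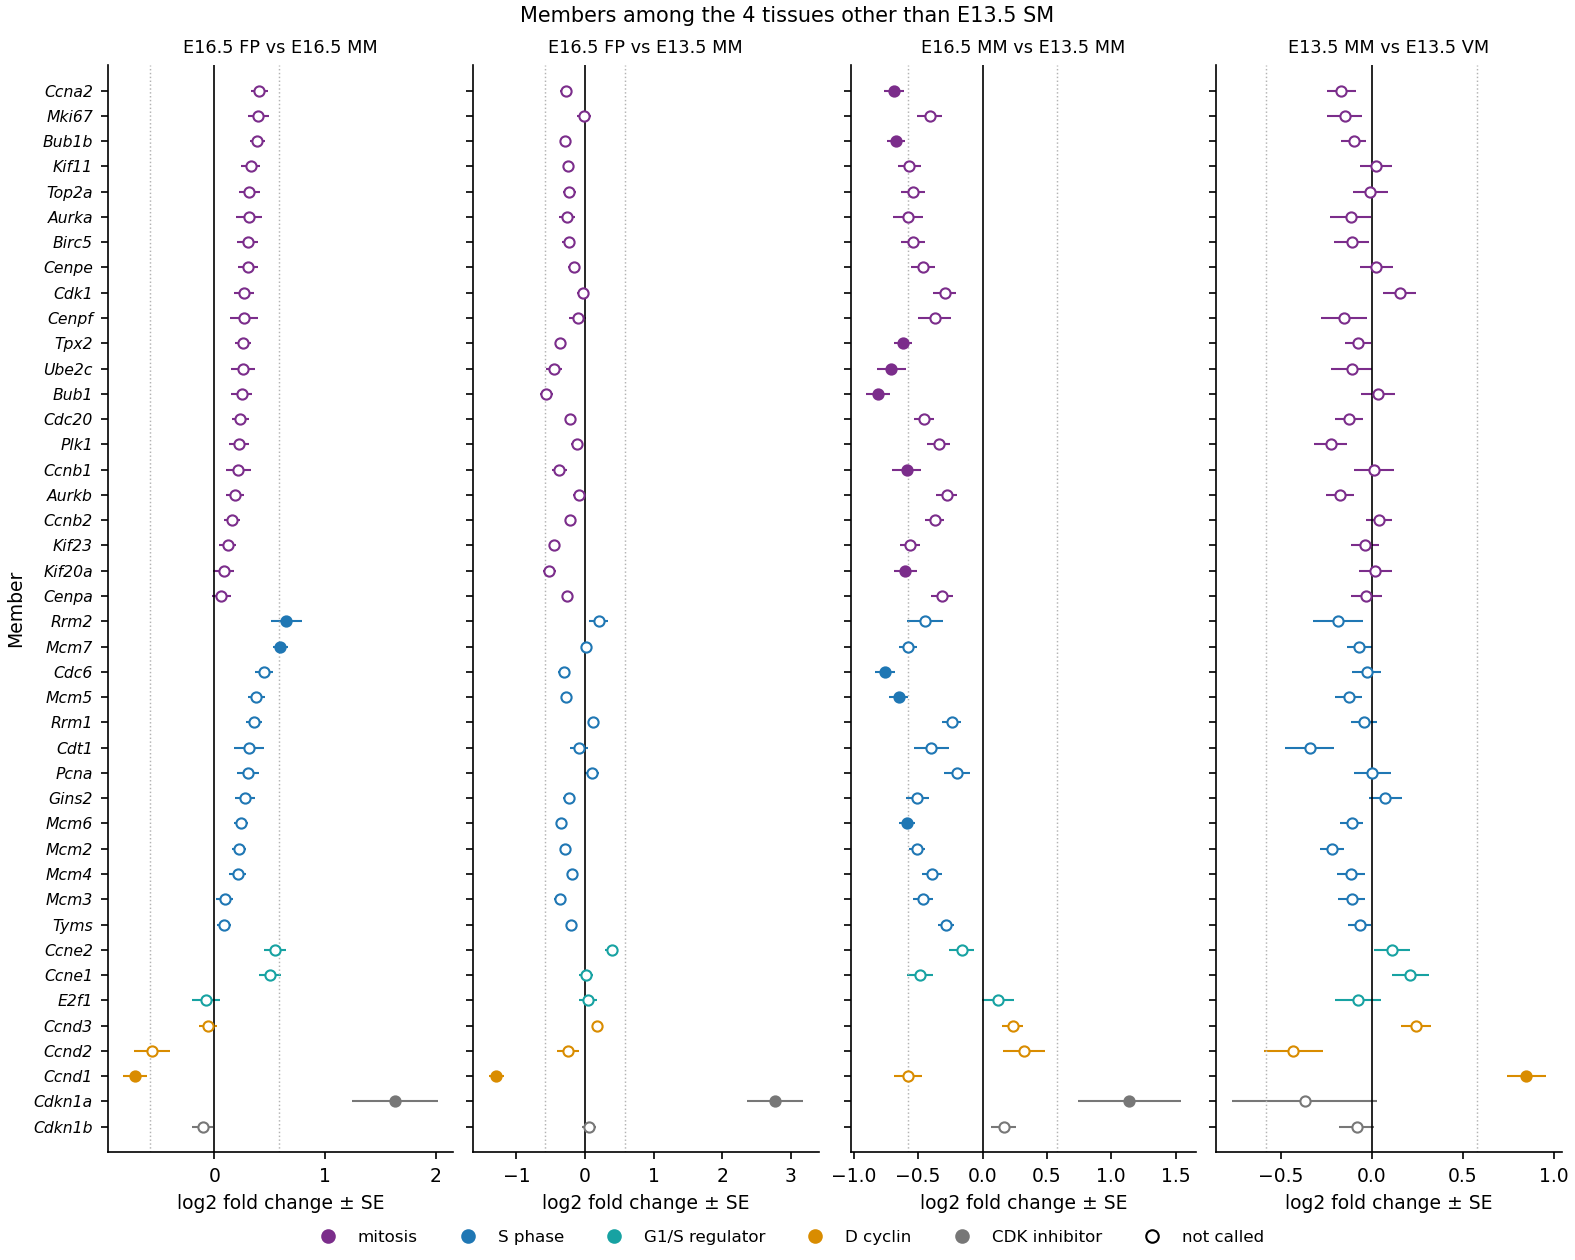
Log2 fold change ± SE (x axis, scaled in each panel) of the 42 members (y axis) in 4 comparisons among E16.5 FP, E16.5 MM, E13.5 MM and E13.5 VM; filled points are called and dotted lines mark ±0.58. In E16.5 MM against E13.5 MM all 34 S phase and mitosis members lie left of 0, of which 10 are called, and in E16.5 FP against E16.5 MM all 34 lie right of 0.

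The G1/S regulators stand at the start of S phase. E2f1 codes for an activator E2F, and Ccne1 and Ccne2 for the E cyclins that partner CDK2. E2f1 had 10.9, 14.6, 13.51, 12.3 and 14.1 CPM for E16.5 FP, 13.7, 12.4, 12.5, 14.6 and 15.6 for E16.5 MM, 11.97, 11.97, 11.99, 15.0 and 12.3 for E13.5 MM and 13.4, 11.8, 14.3, 15.3 and 11.9 for E13.5 VM, against 7.57, 7.51, 5.51, 10.2 and 6.56 for E13.5 SM. It was low but near equal outside the salivary mesenchyme, where no library reached the lowest of the others. Against E13.5 SM, E2f1 had log2 fold changes of 0.80 ± 0.13 (adjusted p = 5.1e-06) for E16.5 FP, 0.88 ± 0.13 (adjusted p = 1.7e-06) for E16.5 MM, 0.76 ± 0.13 (adjusted p = 1.5e-05) for E13.5 MM and 0.83 ± 0.13 (adjusted p = 3.7e-06) for E13.5 VM. Among the other 4 tissues it was 0.12 ± 0.13 (adjusted p = 0.439) for E16.5 MM against E13.5 MM, −0.08 ± 0.13 (adjusted p = 0.721) for E16.5 FP against E16.5 MM and −0.08 ± 0.13 (adjusted p = 0.780) for E13.5 MM against E13.5 VM.

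The E cyclins parted ways. Ccne2 had 147, 111, 123, 140.0 and 124 CPM for E16.5 FP, 79.0, 82.8, 94.3, 99.0 and 85.9 for E16.5 MM, 97.3, 92.4, 93.6, 99.7 and 110.5 for E13.5 MM and 91.8, 93.1, 88.2, 91.2 and 92.9 for E13.5 VM, against 66.4, 44.6, 45.7, 41.8 and 57.7 for E13.5 SM. It was highest in E16.5 FP, without overlap with any other tissue, and lowest in E13.5 SM. Against E13.5 SM, Ccne2 had log2 fold changes of 1.33 ± 0.10 (adjusted p = 1.7e-11) for E16.5 FP, 0.78 ± 0.10 (adjusted p = 2.4e-07) for E16.5 MM, 0.95 ± 0.10 (adjusted p = 1.3e-08) for E13.5 MM and 0.83 ± 0.10 (adjusted p = 9.5e-08) for E13.5 VM. In E16.5 FP it was 0.55 ± 0.10 (adjusted p = 0.000101) against E16.5 MM and 0.39 ± 0.10 (adjusted p = 0.00197) against E13.5 MM, both under the fold threshold, and in E16.5 MM against E13.5 MM it was −0.16 ± 0.10 (adjusted p = 0.183). Ccne1 had 46.7, 48.4, 51.6, 49.6 and 38.4 CPM for E16.5 FP, 29.2, 33.3, 31.7, 40.2 and 31.2 for E16.5 MM, 41.5, 42.5, 51.2, 48.9 and 47.9 for E13.5 MM and 38.4, 38.9, 38.7, 42.8 and 41.4 for E13.5 VM, against 46.7, 34.1, 33.6, 38.9 and 31.2 for E13.5 SM. It overlapped between E13.5 SM and every other tissue, and was called in no comparison. Its largest log2 fold changes were 0.50 ± 0.10 (adjusted p = 0.000302) for E16.5 FP against E16.5 MM and −0.49 ± 0.10 (adjusted p = 0.000302) for E16.5 MM against E13.5 MM. Against E13.5 SM it was 0.35 ± 0.10 (adjusted p = 0.00356) for E16.5 FP, −0.16 ± 0.10 (adjusted p = 0.173) for E16.5 MM, 0.33 ± 0.10 (adjusted p = 0.00624) for E13.5 MM and 0.12 ± 0.10 (adjusted p = 0.310) for E13.5 VM.

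The D cyclins link outside signals to CDK4 and CDK6, and each of them had its own pattern. Ccnd1, a target of Wnt, growth factor and Ras signals, stood highest in the mammary mesenchymes. It had 141, 185, 209, 174 and 207 CPM for E16.5 FP, 301, 297, 305, 276 and 324 for E16.5 MM, 456, 505, 382, 438 and 464 for E13.5 MM and 253, 227, 243, 272 and 252 for E13.5 VM, against 142, 93.8, 96.4, 96.6 and 103 for E13.5 SM. The order was E13.5 MM, E16.5 MM, E13.5 VM, E16.5 FP and E13.5 SM, and only E16.5 FP and E13.5 SM overlapped among neighbours, through E16.5 FP replicate 1 and E13.5 SM replicate 1. Against E13.5 SM, Ccnd1 had log2 fold changes of 0.78 ± 0.11 (adjusted p = 5.3e-07) for E16.5 FP, 1.498 ± 0.11 (adjusted p = 8.2e-12) for E16.5 MM, 2.08 ± 0.11 (adjusted p = 3.0e-14) for E13.5 MM and 1.23 ± 0.11 (adjusted p = 3.6e-10) for E13.5 VM. It was 0.85 ± 0.11 (adjusted p = 1.9e-06) for E13.5 MM against E13.5 VM, −1.29 ± 0.11 (adjusted p = 1.9e-10) for E16.5 FP against E13.5 MM and −0.72 ± 0.11 (adjusted p = 8.5e-06) for E16.5 FP against E16.5 MM, all of them calls. In E16.5 MM against E13.5 MM it was −0.58 ± 0.11 (adjusted p = 8.1e-05), next to the fold threshold, and it was called without the filter on low counts (−0.62) and when E13.5 MM replicate 3 (−0.64), E16.5 MM replicate 1 (−0.58) or E16.5 MM replicate 5 (−0.60) was left out. An exon of Ccnd1 overlaps LTO1 on the other strand. Of the 42 members, 9 have an exon that overlaps a gene on the other strand, Ube2c and Ccnd1 included.

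Ccnd2 had 195, 279.9, 176, 149 and 178 CPM for E16.5 FP, 308, 292, 261, 242 and 344 for E16.5 MM, 210.1, 247, 228, 243 and 229 for E13.5 MM and 275, 289, 261, 463 and 272 for E13.5 VM, against 214, 143, 171, 217 and 211 for E13.5 SM. E13.5 VM replicate 4 was far above the other 4 ventral skin libraries. Ccnd2 was called higher in E16.5 MM (0.60 ± 0.16, adjusted p = 0.00229) and in E13.5 VM (0.70 ± 0.16, adjusted p = 0.000555) than in E13.5 SM. Without E13.5 VM replicate 4 its value in E13.5 VM was 0.52 and not called, and its value in E16.5 MM was 0.52 without E13.5 SM replicate 2, 0.58 without E13.5 SM replicate 3, 0.57 without E16.5 MM replicate 1, 0.53 without E16.5 MM replicate 5 and 0.56 without the filter on low counts, each time not called. In E16.5 FP against E16.5 MM the log2 fold change of Ccnd2 was −0.56 ± 0.16 (adjusted p = 0.00772), not called. It was called without E16.5 FP replicate 2 (−0.74), without E16.5 MM replicate 3 (−0.60) and without E16.5 MM replicate 4 (−0.64). Ccnd3 had 170.4, 201, 178, 179 and 151 CPM for E16.5 FP, 168, 185, 182, 186 and 192 for E16.5 MM, 155, 152, 159, 164 and 146 for E13.5 MM and 131, 122, 150.2, 135 and 119 for E13.5 VM, against 180.3, 239.6, 202, 220.3 and 180.3 for E13.5 SM. Alone among the 42 members it was called lower than in E13.5 SM, in E13.5 VM (−0.64 ± 0.08, adjusted p = 2.3e-07), where the groups did not overlap. At an adjusted p alone it was also lower in E13.5 MM (−0.40 ± 0.08, adjusted p = 0.000159) and E16.5 FP (−0.22 ± 0.08, adjusted p = 0.0194), and in E16.5 MM it was −0.16 ± 0.08 (adjusted p = 0.0802).

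The CDK inhibitors Cdkn1a (p21) and Cdkn1b (p27) bind and block cyclin-CDK complexes, Cdkn1a often downstream of p53. Cdkn1a had the lowest level of the 42 members per kb of exon in every tissue. It had 17.2, 25.7, 9.77, 10.8 and 3.47 CPM for E16.5 FP, 5.71, 4.02, 3.08, 3.97 and 4.82 for E16.5 MM, 2.34, 1.69, 1.99, 1.95 and 1.83 for E13.5 MM and 3.00, 1.29, 3.40, 2.28 and 2.65 for E13.5 VM, against 2.64, 1.19, 0.762, 2.51 and 0.787 for E13.5 SM. It was high in 4 of the 5 E16.5 FP libraries and low in replicate 5, which lay within the range of E16.5 MM. The log2 fold change of Cdkn1a was 3.08 ± 0.41 (adjusted p = 5.1e-07) for E16.5 FP against E13.5 SM, 2.77 ± 0.41 (adjusted p = 3.2e-06) for E16.5 FP against E13.5 MM and 1.63 ± 0.39 (adjusted p = 0.00171) for E16.5 FP against E16.5 MM, where it ran from 1.25 to 1.88 with 1 library left out. In E16.5 MM it was 1.44 ± 0.40 (adjusted p = 0.00304) against E13.5 SM and 1.14 ± 0.40 (adjusted p = 0.0208) against E13.5 MM, a call that was lost without E16.5 MM replicate 1 (1.02, adjusted p = 0.0536) and without the filter on low counts (1.10, adjusted p = 0.0676). In E13.5 MM and E13.5 VM it was not called against E13.5 SM (0.30 and 0.67). Skeletal muscle markers moved with Cdkn1a in the fat pad. The 8 markers summed to 5647, 8439, 4782, 4824 and 780 CPM for E16.5 FP replicates 1 to 5, and to 264 to 1152 CPM for E16.5 MM, and the libraries ranked alike for the lowest (replicate 5) and the highest (replicate 2) of both. Myog, which codes for a muscle differentiation factor, had 96.4, 127, 75.0, 81.2 and 19.0 CPM for E16.5 FP. The part of muscle in the Cdkn1a values was not tested. Cdkn1b had 52.2, 49.2, 44.0, 51.8 and 47.4 CPM for E16.5 FP, 49.8, 52.7, 61.3, 51.6 and 48.1 for E16.5 MM, 38.2, 52.9, 42.8, 49.4 and 51.5 for E13.5 MM and 41.9, 57.9, 50.1, 46.8 and 52.0 for E13.5 VM, against 54.1, 50.2, 45.5, 44.1 and 41.5 for E13.5 SM. The 5 tissues overlapped, and its log2 fold changes in the 8 comparisons ran from −0.11 to 0.17 (standard errors 0.10, adjusted p from 0.135 to 0.982).

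**Figure D4:**
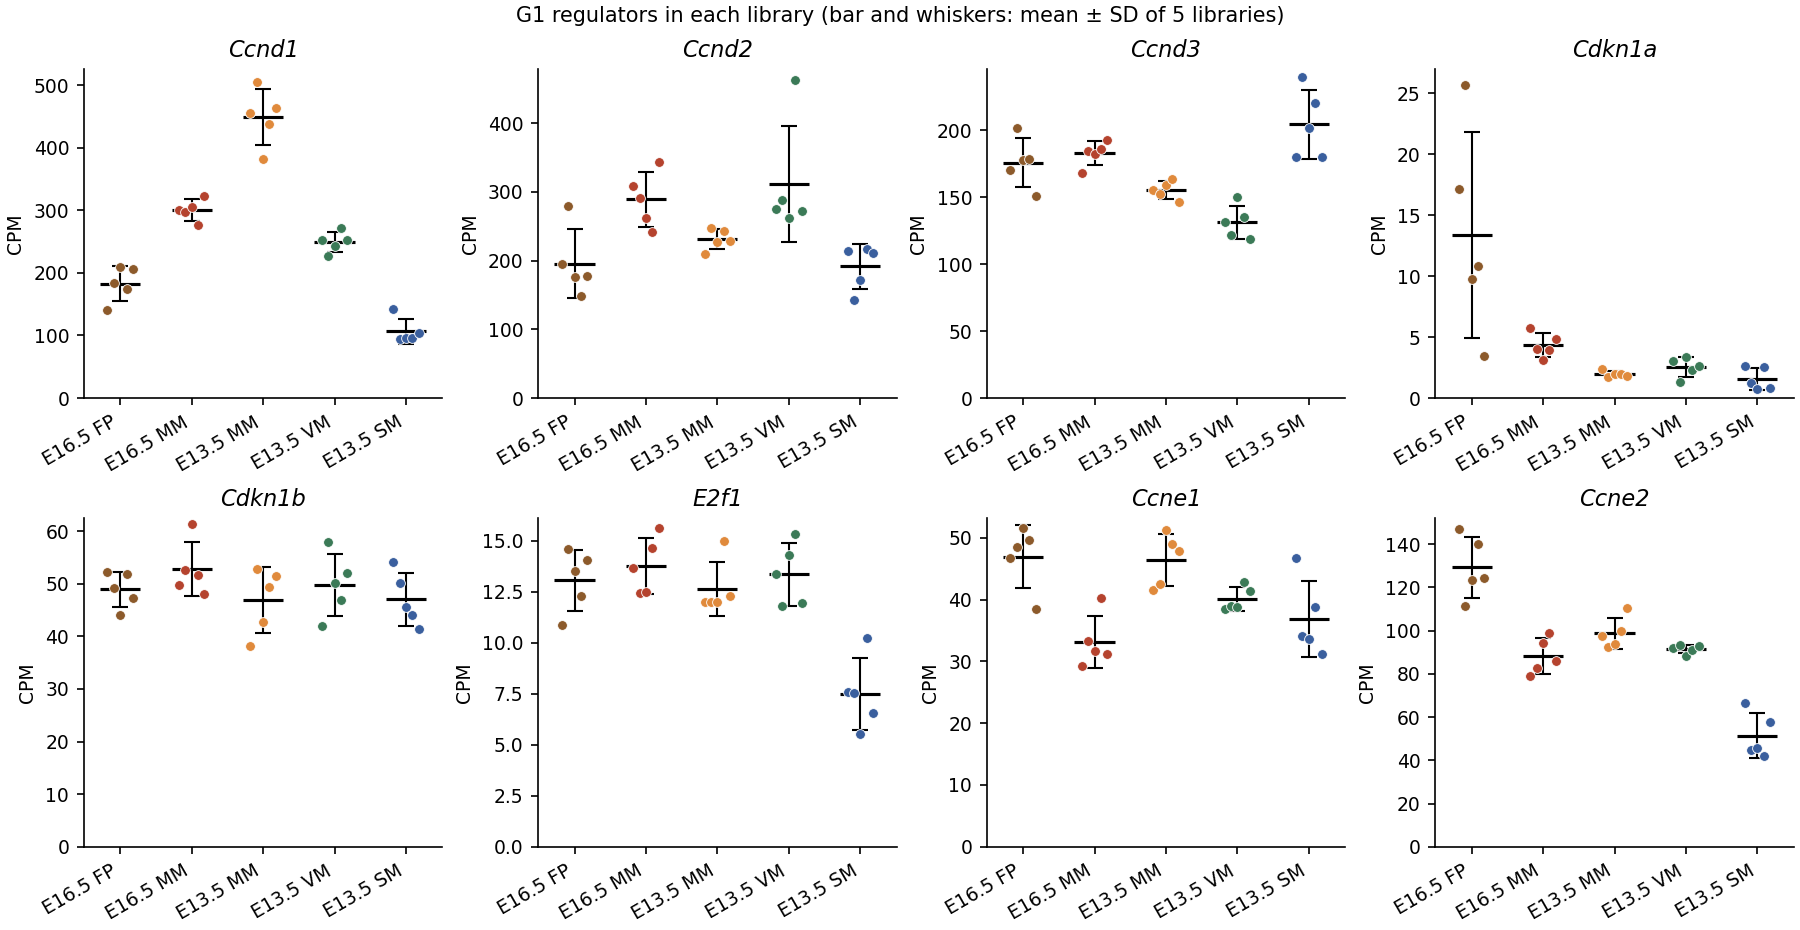
CPM (y axis, from 0) of the D cyclins, CDK inhibitors and G1/S regulators in each of the 25 libraries, by tissue (x axis); points are libraries and bars with whiskers the mean ± SD of 5. Ccnd1 stands highest in E13.5 MM (382 to 505 CPM), Cdkn1a is spread in E16.5 FP (3.47 to 25.7 CPM), and Cdkn1b is level across tissues.

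Further genes of the cycle, taken by name from a wider list, were counted by the same rule. Of 45 other S phase genes, 19 were higher in E16.5 FP, 11 for E16.5 MM, 32 for E13.5 MM and 32 for E13.5 VM than in E13.5 SM, where 20.2%, 18.5%, 14.5% and 14.7% of all genes were called higher. Of the 45, 1 was lower in E16.5 MM and 0 in the other 3. Of 57 other mitosis genes, 45, 43, 49 and 49 were higher in the same order of tissues, with Pttg1, the securin gene, lower in E16.5 FP and E16.5 MM (named after its values were seen). The median log2 fold changes were 0.52, 0.25, 0.80 and 0.81 for the S phase list and 1.01, 0.74, 1.17 and 1.20 for the mitosis list. In E16.5 MM against E13.5 MM, 19 of the 45 S phase genes and 8 of the 57 mitosis genes were lower and 0 higher, with medians of −0.51 and −0.40 (all genes 7.16% lower and 12.6% higher). Among the largest called changes of the S phase list were those of Tk1, the thymidine kinase of the salvage pathway (1.68 ± 0.08, adjusted p = 4.5e-15 for E16.5 FP against E13.5 SM) and Uhrf1, which keeps DNA methylation through replication (1.41 ± 0.10, adjusted p = 5.9e-12 for E13.5 VM). Those of the mitosis list were Cdca3, a trigger of mitotic entry (1.93 ± 0.12, adjusted p = 5.1e-13 for E13.5 MM), Cks2, a CDK-binding subunit (1.87 ± 0.15, adjusted p = 8.5e-11 for E13.5 MM), and Kif18b, a kinesin that trims spindle microtubules (1.64 ± 0.09, adjusted p = 6.2e-14 for E13.5 VM). Tk1 averaged 91.9 ± 10.3 CPM for E16.5 FP, 60.5 ± 6.37 for E16.5 MM, 58.6 ± 3.19 for E13.5 MM, 67.3 ± 5.15 for E13.5 VM and 28.6 ± 2.25 for E13.5 SM (SD, n = 5 each). Its mean was thus highest in the fat pad, as were those of Pcna, Rrm1 and Rrm2. For Pcna, Rrm1 and Rrm2 the E16.5 FP libraries overlapped those of E13.5 MM and of E13.5 VM.

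The brakes on the cycle did not move as a group. Of 3 other CDK inhibitors that passed the filter, of 5 listed, 1 was lower and 1 higher than in E13.5 SM in all 4 tissues. Cdkn1c (p57), an imprinted inhibitor known for embryonic cell cycle exit, had 1172, 1172, 1233, 1308 and 1093 CPM for E16.5 FP, 975, 1034, 982, 960.2 and 826 for E16.5 MM, 1083, 840.1, 936, 896 and 829.9 for E13.5 MM and 820.4, 789.5, 694, 527 and 622 for E13.5 VM, against 2309.8, 3578, 2412, 2499 and 2569 for E13.5 SM. No library of another tissue reached the lowest salivary library. Its log2 fold change was −1.16 ± 0.12 (adjusted p = 3.5e-09) for E16.5 FP, −1.48 ± 0.12 (adjusted p = 5.4e-11) for E16.5 MM, −1.54 ± 0.12 (adjusted p = 3.6e-11) for E13.5 MM and −1.95 ± 0.12 (adjusted p = 4.3e-13) for E13.5 VM. Per kb of exon, Cdkn1c stood at 1311 CPM per kb in E13.5 SM, where Cdkn1b stood at 10.3. Cdkn2c (p18) went the other way, with 44.0 ± 6.84 CPM for E16.5 FP, 32.7 ± 5.11 for E16.5 MM, 24.8 ± 1.93 for E13.5 MM, 19.2 ± 2.03 for E13.5 VM and 11.0 ± 1.11 for E13.5 SM (SD, n = 5 each), and log2 fold changes of 1.99, 1.57, 1.17 and 0.80 in the same order of tissues. Of 12 other E2F and Rb family genes, 6 were higher and 0 lower in E16.5 FP, 3 and 1 for E16.5 MM, 4 and 1 for E13.5 MM, and 6 and 1 for E13.5 VM than in E13.5 SM. Over all genes, 20.2%, 18.5%, 14.5% and 14.7% were called higher and 19.3%, 16.6%, 15.6% and 15.6% lower in the same order. E2f2, another activator, was higher in all 4 (1.68, 0.66, 1.16 and 1.21), as was the repressor E2f8 (1.29, 1.01, 1.35 and 1.45). Rb1, the retinoblastoma gene, was higher in E16.5 FP when set against E13.5 MM (1.39 ± 0.18, adjusted p = 3.3e-07), with 61.0, 90.5, 52.3, 53.9 and 34.5 CPM for E16.5 FP against 23.1, 20.3, 26.9, 20.96 and 20.6 CPM for E13.5 MM. Its lowest and highest fat pad libraries were again replicates 5 and 2, which hold the least and the most muscle marker RNA. The part of muscle in the Rb1 values was not tested. Of 12 other cyclins and CDKs, 4, 1, 4 and 4 were higher than in E13.5 SM and 0, 0, 0 and 2 lower, to be read against the same shares of all genes. Cdk6 was higher in all 4 (0.78, 1.17, 1.01 and 1.03). Ccnf reached 1.18 ± 0.09 (adjusted p = 8.4e-12) and Pkmyt1 1.09 ± 0.09 (adjusted p = 1.9e-10) for E13.5 VM.

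The p53 target list was read because Cdkn1a is a p53 target. Of its 14 genes, 1 was higher and 0 lower in E16.5 FP against E16.5 MM (all genes 6.78% and 7.34%), and 2 were higher and 2 lower in E16.5 FP against E13.5 MM (14.3% and 11.2%). Set against E13.5 SM, the list had 4 higher and 5 lower in E16.5 FP, 3 and 4 for E16.5 MM, 1 and 5 for E13.5 MM, and 2 and 4 for E13.5 VM, with Eda2r the furthest down (−2.56 ± 0.16, adjusted p = 6.9e-13 for E13.5 VM). For all genes these shares were 20.2% and 19.3% for E16.5 FP, 18.5% and 16.6% for E16.5 MM, 14.5% and 15.6% for E13.5 MM, and 14.7% and 15.6% for E13.5 VM. Immediate early and heat shock genes were in part highest in E13.5 SM: 7, 3, 9 and 8 of 14 were lower and 3, 4, 2 and 3 higher in E16.5 FP, E16.5 MM, E13.5 MM and E13.5 VM. Fosb, the furthest, averaged 5.73 ± 4.73 CPM for E13.5 VM and 40.9 ± 24.96 CPM for E13.5 SM (SD, n = 5 each), with a log2 fold change of −2.84 ± 0.52 (adjusted p = 6.9e-05). Their part in the cell cycle differences was not tested.

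The promoters of the 2 phases carried different letters, which the choice of genes did not use. Promoter windows of 300 bases, 250 before and 50 from the RefSeq start site on (GRCm38.p6), were at hand for 33 of the 42 members, and the first listed window was read for each gene. On both strands, E2F sites were counted as TTTGGCGC, TTTCGCGC or TTCCCGCC, the cell cycle genes homology region (CHR), which the DREAM and B-Myb complexes bind, as TTTGAA or TTCGAA, and the CCAAT box, which NF-Y binds, as CCAAT. A CHR was found in 14 of 17 mitosis windows (82.4%) and 2 of 11 S phase windows (18.2%), against 19.4% of 27025 RefSeq promoters. An E2F site was found in 1 of 17 mitosis windows (5.88%) and 6 of 11 S phase windows (54.5%), against 3.03% of all promoters. A CCAAT box was found in 16 of 17 mitosis windows (94.1%) and 8 of 11 S phase windows (72.7%), against 37.9%. A CHR and a CCAAT box that start within 50 bases of each other were found in 9 of 17 mitosis windows (52.9%) and 0 of 11 S phase windows, against 3.36% of all promoters. These are matches of letters and not shown sites. Among the named members, Birc5, Cdc6 and Tyms had no match to any of the 3 motifs in their window, and neither had E2f1, Ccne1, Ccnd3 or Cdkn1a. Whether these windows hold the main start site of each gene was not checked. A missing match therefore does not mean that the promoter of the gene lacks the motif. Of the 2 inhibitors, Cdkn1b had 3 CCAAT boxes.

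**Figure D5:**
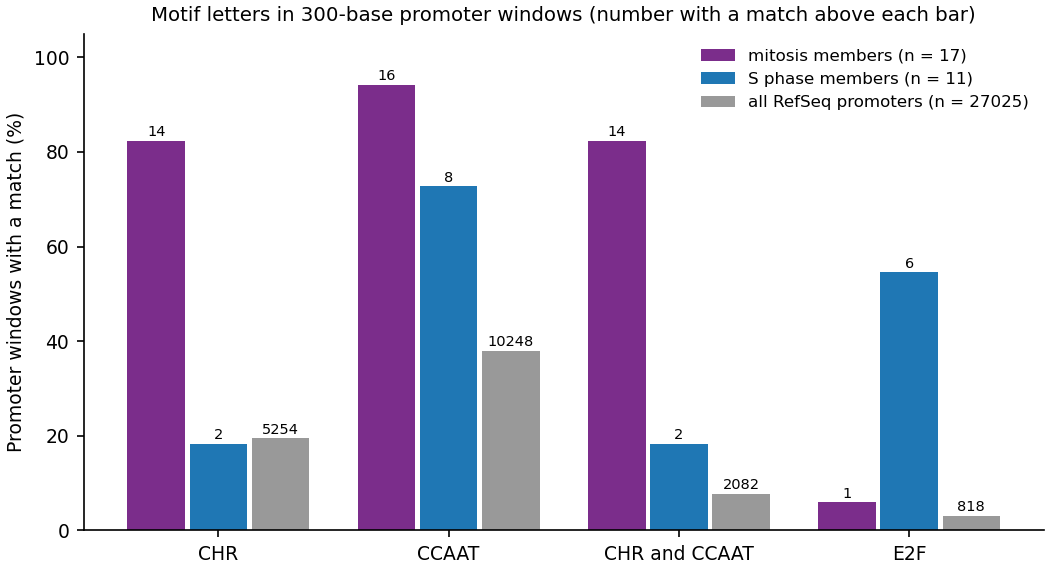
Share of promoter windows with a match (y axis, percent) to the CHR, CCAAT box, both, or an E2F site (x axis) among mitosis members, S phase members and all RefSeq promoters; numbers above bars count windows with a match. The CHR stands at 82.4% of mitosis windows and the E2F site at 54.5% of S phase windows, against 19.4% and 3.03% of all promoters.

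Windows of 5 members show the 2 kinds side by side, in lower case with each motif match in capitals, 5′ to 3′ on the gene's strand (RefSeq, GRCm38.p6). Mcm5 (chr8:75109259-75109558, plus strand) and Mcm6 (chr1:128359656-128359955, minus strand), whose log2 fold changes in E16.5 MM against E13.5 MM were −0.65 and −0.59, carry E2F letters, in both cases as a pair of sites that overlap on opposite strands. Mcm6 also holds an E2F site apart from its pair. Cdk1 (chr10:69352863-69353162, minus strand) holds an E2F site beside CHRs and CCAAT boxes. Ccnb2 (chr9:70421505-70421804, minus strand) and Ube2c (chr2:164769679-164769978, plus strand), whose log2 fold changes in E13.5 MM against E13.5 SM were 1.49 and 1.61, hold CHR letters and CCAAT boxes and no E2F letters. Counted from the start site as 1, the CHRs of Ccnb2 begin at bases −167 and 5, those of Cdk1 at −71 and −15, and that of Ube2c, on the other strand, at −29.
Mcm5: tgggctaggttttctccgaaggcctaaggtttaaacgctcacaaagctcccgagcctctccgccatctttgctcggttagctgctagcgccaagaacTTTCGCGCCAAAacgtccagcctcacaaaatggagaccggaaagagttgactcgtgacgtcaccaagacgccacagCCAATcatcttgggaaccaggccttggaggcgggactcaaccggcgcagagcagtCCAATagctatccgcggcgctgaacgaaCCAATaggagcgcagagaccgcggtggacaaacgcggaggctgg
Mcm6: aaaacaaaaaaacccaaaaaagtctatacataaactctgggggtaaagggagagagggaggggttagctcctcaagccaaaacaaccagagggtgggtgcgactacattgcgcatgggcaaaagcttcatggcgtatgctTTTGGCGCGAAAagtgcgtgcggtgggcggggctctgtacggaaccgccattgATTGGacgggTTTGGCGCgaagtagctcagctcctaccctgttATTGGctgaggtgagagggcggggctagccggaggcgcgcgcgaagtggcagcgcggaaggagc
Cdk1: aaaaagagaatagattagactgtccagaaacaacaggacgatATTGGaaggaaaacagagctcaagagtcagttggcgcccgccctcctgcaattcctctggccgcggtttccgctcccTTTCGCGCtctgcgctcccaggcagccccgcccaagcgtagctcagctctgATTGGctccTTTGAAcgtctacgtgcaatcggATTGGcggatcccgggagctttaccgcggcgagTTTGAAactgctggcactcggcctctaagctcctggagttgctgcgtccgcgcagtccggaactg
Ccnb2: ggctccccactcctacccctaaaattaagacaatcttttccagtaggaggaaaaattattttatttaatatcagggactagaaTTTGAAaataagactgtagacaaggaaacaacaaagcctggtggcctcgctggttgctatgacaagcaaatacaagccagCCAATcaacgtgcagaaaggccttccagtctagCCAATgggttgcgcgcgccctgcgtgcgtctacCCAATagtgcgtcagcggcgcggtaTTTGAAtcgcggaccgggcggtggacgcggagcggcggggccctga
Ube2c: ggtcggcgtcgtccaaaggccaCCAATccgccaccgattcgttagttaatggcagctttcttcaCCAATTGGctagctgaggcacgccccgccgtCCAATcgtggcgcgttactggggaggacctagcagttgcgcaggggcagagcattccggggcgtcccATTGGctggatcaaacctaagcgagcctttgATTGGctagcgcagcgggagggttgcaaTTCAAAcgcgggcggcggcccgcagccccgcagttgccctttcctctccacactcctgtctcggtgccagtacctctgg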

How the data were processed

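RNA-seq was done by the authors on 25 pools of embryonic mesenchyme, with 5 libraries per tissue. Per the labels and the study's methods, libraries were made with the Ovation SoLo kit and read on a NextSeq 500. The submitters' processing notes name FastQC 0.11.8, MultiQC 1.9, Trimmomatic 0.39, Salmon 0.99.0 and DESeq2 3.15, with mm10. The deposited values are estimated counts per Ensembl gene that Salmon gave the authors, as whole numbers, with no normalisation. Use of strand is not stated.

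Here the counts were fitted with edgeR 4.0.16 in R 4.3.3 (TMM normalisation, filterByExpr, robust quasi-likelihood test, all 25 libraries, 20 residual degrees of freedom), with Benjamini-Hochberg adjustment over 17657 genes and 8 comparisons taken one at a time. Each p printed is that test's. Standard errors were the absolute log2 fold change divided by the root of F. Log2 CPM used a prior count of 2. Symbols, exon lengths and overlaps came from GENCODE M21. The steps were tested on simulated data for E16.5 MM against E13.5 MM, with the same spread for every gene. Of genes simulated at log2 fold changes of 1 and −1, 94% and 92% passed the adjusted p. At 0.58 and −0.58, 20% and 8% passed it. Of all genes that passed, 3.6% were false. Alternatives were DESeq2 1.42.0, its size factors, no filter, a replicate block, fits of 2 tissues, other call rules and leaving out each library. Total counts of 20678150 to 34448304 limit the least abundant members only. Values in every library are given for the 4 S phase and 4 mitosis members with the largest called changes and for all members of the short lists, and up to 3 called genes are named of each other list. The members and lists were chosen with earlier results of these data known. Some results of the other S phase list are not reported here.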

Additional observations from a re-analysis of the deposited data

Results flagged for a closer look

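Of 210 sets of 5 libraries (42 members in 5 tissues), 18 held a library set apart from the other 4, by a gap over the range above Dixon's critical value of 0.71. Chance gives about 1 in 20.

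Of the 18, 8 were E13.5 SM replicate 1, each time the highest of its tissue. It had 100.04 CPM of Mcm5, 244 CPM of Mcm6, 224 CPM of Rrm1, 87.0 CPM of Bub1b, 76.98 CPM of Kif20a, 108 CPM of Tpx2, 30.2 CPM of Birc5 and 142 CPM of Ccnd1. The other 4 salivary libraries had at most 81.9 CPM of Mcm5, 212 CPM of Mcm6 and 52.1 CPM of Kif20a. E16.5 FP replicate 2 stood low for Mcm5 (125 CPM) and Bub1b (119 CPM) and high for Cdt1 (29.8 CPM), and E16.5 FP replicate 1 stood high for Kif11 (268 CPM). E13.5 MM replicate 3 stood low for Mcm2 (116 CPM), Mcm3 (119 CPM) and Cdc20 (69.1 CPM), and E13.5 MM replicate 4 stood high for E2f1 (15.0 CPM). In E13.5 VM, replicate 1 stood low for Cdk1 (129.9 CPM) and replicate 4 high for Ccnd2 (463 CPM).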

How the results depend on the processing

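By adjusted p alone, members called higher and lower numbered 2 and 1 for E13.5 MM over E13.5 VM (all genes 7.91% and 7.65%). For E16.5 MM against E13.5 MM they numbered 2 and 35 (23.6% and 25.8%). They were 2 and 23 for E16.5 FP over E13.5 MM (25.9% and 27.1%), and 25 and 2 for E16.5 FP over E16.5 MM (17.6% and 16.2%). By this rule 1 was lower than E13.5 SM in each of E16.5 FP and E13.5 MM (all genes 34.9% and 30.8%). Without the filter on low counts, 34038 genes were tested. E16.5 MM against E13.5 MM then had 0 members higher and 17 lower, while 2 were lower when E16.5 FP was set against E13.5 MM. The median log2 fold change of all genes was 0.15 and 0.18 in these comparisons, against 0.01 and 0.03 with the filter. The 16 counts over all genes stayed within 1.5 times of those with the filter. With DESeq2, its size factors, fits of 2 tissues or a count minimum over both tissues, all 16 counts of called members stayed within 1.5 times. So they did with the replicate block, where the counts called higher against E13.5 SM were 32 for E16.5 FP, 24 for E16.5 MM, 34 for E13.5 MM and 37 for E13.5 VM. Replicate numbers did not pair the libraries (correlations of −0.25 to 0.29 between same-numbered deviations).

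Leaving out 1 library at a time, the members called higher than E13.5 SM numbered 32 for E16.5 FP, 23 to 27 for E16.5 MM, 32 to 34 for E13.5 MM and 36 to 37 for E13.5 VM. In E16.5 MM against E13.5 MM, 0 to 1 were higher (0 without E16.5 MM replicate 1) and 6 to 14 lower (6 without E13.5 MM replicate 5, 14 without E13.5 MM replicate 3). In E16.5 FP against E13.5 MM, 1 to 2 were lower (2 without E13.5 MM replicate 1, E13.5 MM replicate 3 or E16.5 FP replicate 1). In E16.5 FP against E16.5 MM, 1 to 4 were higher (1 without E16.5 FP replicate 1) and 1 to 2 lower (2 without E16.5 FP replicate 2, E16.5 MM replicate 3 or E16.5 MM replicate 4). The cause was not tested.

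The sign of Cdkn1b, called nowhere, turned in E13.5 MM against E13.5 SM with size factors (0.0062), no filter (0.00044), 2 tissues (0.022) and DESeq2 (0.0065), and ran from −0.046 to 0.065 with 1 library left out. It turned with no filter in E16.5 FP against E13.5 SM (−0.00032) and against E13.5 MM (−0.00076), where it ran from −0.0058 to 0.10 with 1 library left out.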
